A study of Mus musculus with 20 samples.

Results

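Vnn1 and Plin2, 2 target genes of the nuclear receptor PPARα, were followed in the livers of 20 mice in which Ppara mRNA had been lowered by siRNA or left alone. All probes whose only gene symbol in the array annotation was Vnn1 or Plin2 were taken, which gave 2 probes for Vnn1 and 3 for Plin2 among 23493 probes, or 2 genes of 15252. The genes were chosen by the clear fall of their own ratios in mice given a Ppara siRNA. Every difference between Ppara siRNA mice and other mice is therefore given for these genes as a description without a test. Their relation to Ppara among mice of the same group did not enter that choice and was tested.

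PPARα is a receptor for fatty acids that binds DNA as a partner of the retinoid X receptor and drives genes of fatty acid oxidation, transport and storage in hepatocytes, above all in fasting. Vnn1 encodes vanin 1, a membrane-anchored pantetheinase that splits pantetheine into cysteamine and pantothenate, the vitamin from which coenzyme A is made. Plin2 encodes perilipin 2, which coats lipid droplets and shields the stored triglyceride from lipases. Transcripts of both genes are known to rise in mouse liver with fasting and with PPARα agonists.

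Each of 5 groups held 4 mice. One group received Ringer's solution alone (the vehicle), and the others also received an siRNA, either against Ppara (PPARa siRNA or PPARa-M siRNA) or as a control (GL3 or SEAP-M). All 5 groups were given a hydrodynamic tail vein injection, a fast injection of a large volume that carries nucleic acid mainly into hepatocytes. The dose was 40 µg of siRNA, and livers were collected after 48 h. The siRNAs named PPARa and PPARa-M are directed at different stretches of the Ppara transcript, whereas GL3 and SEAP (a secreted alkaline phosphatase) are reporter genes. The meaning of the suffix M, and the strain and age of the mice, are not given in the sources used here. The knockdown was partial and covered only cells that took up the siRNA. In whole liver, fewer cells of a type and less RNA per cell cannot be told apart.

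Each liver was hybridised on a 2-colour array against RNA pooled from 4 vehicle mice, which the labels do not identify further, and a value is the log10 ratio of mouse to pool, so that 0 is the level of the pool. The direction of the ratio is likely rather than stated. It follows the order of the labels, with the pool in the Cy3 channel and the mouse in the Cy5 channel, and no pair of arrays correlated below -0.255. In this direction Ppara, the gene that the siRNAs target, was at 61.0% of the pool with PPARa-M siRNA. The log base follows from the limits of the table, at -2 and 2, and from the scale of the study's legends. Array medians lay between -0.0093 and 0.0060, and the interquartile range over all probes lay between 0.0735 and 0.125 with PPARa-M siRNA and between 0.0442 and 0.0852 in the other groups. Ratios carry no level of expression, so the presence of hepatocyte transcripts was not checked, and the precision is limited by the number of arrays. Of the 20 mice, PPARa siRNA replicate D stood apart in 8 neutrophil markers, with a mean log2 ratio of 2.61 against at most 0.60 in the other mice. Whether the 4 mice of a group were treated on separate days is not given in the sources used here, so p values measure the spread between these mice only.

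The promoter of Plin2 is shown because PPARα acts through DNA sites built on the hexamer AGGTCA. Promoter sequences were from RefSeq, build GRCm38.p6, where Plin2 matched an entry and Vnn1 did not. The table's window holds the 250 bases before 1 annotated start of Plin2, but the gene record of the same build reaches further upstream and covers 158 of them. Only the outer 92 bases, which lie before the whole gene record, are shown. They are the minus strand of chr4:86670218-86670309, written 5′ to 3′, and the capitals mark a match to AGGTCA on the opposite strand.

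Plin2: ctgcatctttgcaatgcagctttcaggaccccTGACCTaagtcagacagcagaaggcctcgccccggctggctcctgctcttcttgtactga

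The match begins 218 bases before the start used in the table and 60 bases before the end of the gene record, and it was the only one in the 250 bases. AGGTCA was searched on both strands and was held by 14.0% of 32851 promoter windows of 250 bases, so a match to it is common. The direct repeat AGGTCANAGGTCA, the arrangement known to bind PPARα with its partner, was held by 0.0335% of these windows and not by that of Plin2. A search for letters in this window shows neither binding nor its absence.

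Ppara itself, the targeted gene, was measured by 4 probes that followed one another, with Pearson correlations from 0.942 to 0.992 over the 20 mice. The mean of its probes was -0.177, -0.317, -0.178 and -0.186 in PPARa-M siRNA replicates A to D. It was 0.0258, -0.126, -0.0876 and -0.106 in PPARa siRNA replicates A to D. The PPARa siRNA group thus held 1 mouse, replicate A, whose Ppara was above the pool. In SEAP-M control siRNA mice it was 0.242, -0.0468, 0.0374 and -0.0204 in the same order, so that replicate A of that group had the highest Ppara level of all mice. In the 4 GL3 control siRNA mice Ppara lay between 0.0014 and 0.0610, and in the 4 vehicle mice between -0.0323 and 0.0653.

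Vnn1 was below the pool in all 8 mice that received a Ppara siRNA, and most deeply with PPARa-M siRNA. The mean of its probes was -0.174, -0.247, -0.216 and -0.223 in PPARa-M siRNA replicates A to D, a mean of -0.215 ± 0.0304 (SD, n = 4) or 61.0% of the pool. In PPARa siRNA replicates A to D it was -0.0181, -0.167, -0.0577 and -0.152, with a mean of -0.0986 ± 0.0722 (SD, n = 4) or 79.7% of the pool. These mice fell into a pair with little loss of Vnn1, replicates A and C, and a pair whose levels came close to those of PPARa-M siRNA mice, replicates B and D.

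In the mice without a Ppara siRNA Vnn1 stayed near the pool. It was 0.0482, 0.0635, 0.0795 and -0.0263 in SEAP-M control siRNA mice, with a mean of 0.0412 ± 0.0468 (SD, n = 4). In GL3 control siRNA mice it was 0.0435, 0.0770, -0.0321 and 0.0426, with a mean of 0.0327 ± 0.0461 (SD, n = 4). The vehicle mice had 0.0132, -0.0072, -0.0352 and 0.0286, a mean of -0.0002 ± 0.0276 (SD, n = 4). The order of the group means was therefore SEAP-M, GL3, vehicle, PPARa and PPARa-M, from high to low. The first 3 of these groups overlapped with one another, PPARa siRNA mice overlapped with vehicle mice in replicate A only, and PPARa-M siRNA mice all lay below PPARa siRNA mice, though by a narrow margin.

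**Figure D1:**
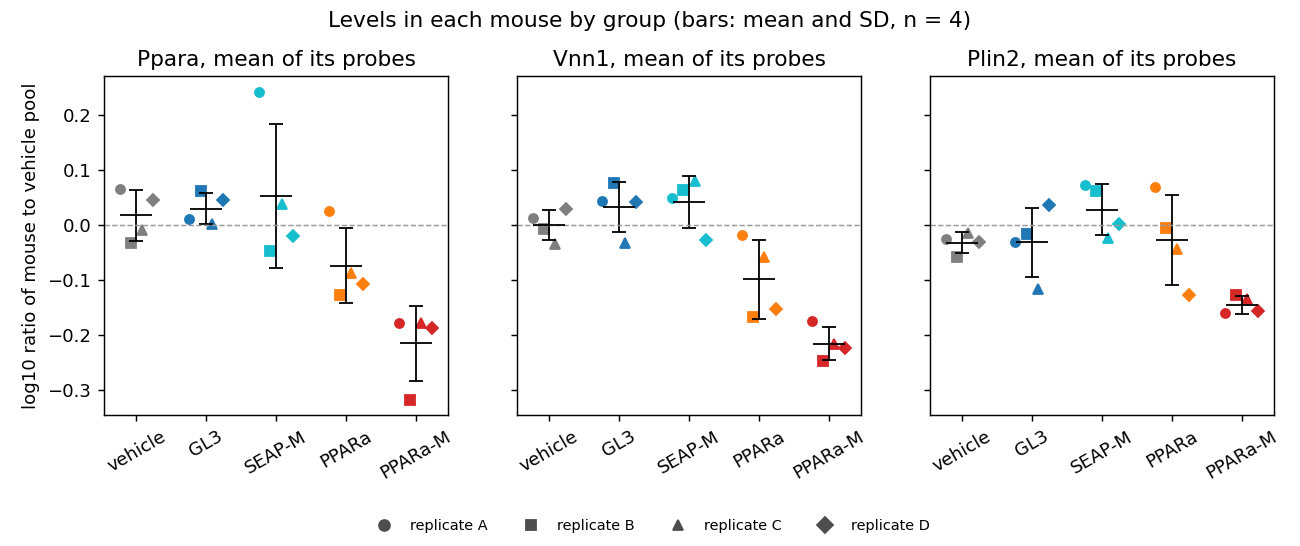
Log10 ratio to the vehicle pool (y axis) of Ppara, Vnn1 and Plin2 in each of the 20 mice by group (x axis), with a marker shape for each replicate letter and bars for the mean and SD of 4 mice. Vnn1 is below 0 in all 8 Ppara siRNA mice, while Plin2 is at -0.127 or lower in the 4 PPARa-M siRNA mice and spread from -0.128 to 0.0682 with PPARa siRNA.

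As log2 differences from the limma fit, Vnn1 was lower by -0.85 (SE 0.11) with PPARa-M siRNA than with SEAP-M control siRNA, which left it at 55.4% of that level. Against GL3 control siRNA, PPARa siRNA left Vnn1 at 73.9%, a log2 difference of -0.44 (SE 0.11). Relative to vehicle the levels were 61.0% with PPARa-M siRNA and 79.7% with PPARa siRNA. The PPARa-M siRNA mice overlapped with neither SEAP-M nor vehicle mice in Vnn1 or Plin2. Over all genes, 6.36% lay wholly below the SEAP-M mice and 7.73% wholly below the vehicle mice, and since both genes were chosen by this fall nothing is read from that. Of all 15252 genes, 77 had a more negative difference than Vnn1 between PPARa-M and SEAP-M siRNA and 145 between PPARa and GL3 siRNA. GL3 and SEAP-M control siRNAs left Vnn1 at 107.9% and 110.0% of the vehicle level (SE 0.11 on the log2 scale for each), and their mice overlapped with the vehicle mice.

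Both Vnn1 probes gave this picture. They represent the same transcript record and correlated with r = 0.985 over the 20 mice. PPARa-M siRNA left the first at 58.5% and the second at 52.6% of the SEAP-M level, and PPARa siRNA left them at 74.2% and 73.6% of the GL3 level. On the first probe, but not on the second, PPARa-M and PPARa siRNA mice overlapped. The share of genes whose PPARa-M siRNA mice all lay below the PPARa siRNA mice was 7.78%.

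Plin2 was low in the 4 PPARa-M siRNA mice and not, as a group, in the PPARa siRNA mice. The mean of its 3 probes was -0.160, -0.127, -0.135 and -0.156 in PPARa-M siRNA replicates A to D, a mean of -0.144 ± 0.0162 (SD, n = 4) or 71.7% of the pool. In PPARa siRNA replicates A to D it was 0.0682, -0.0063, -0.0443 and -0.128, a mean of -0.0275 ± 0.0814 (SD, n = 4). By this mean Plin2 was thus above the pool in replicate A, the mouse of this group with the highest Ppara and Vnn1. It was as low in replicate D as in PPARa-M siRNA replicate B, the highest mouse of that group. On probes 1 and 3 alone replicate D, at -0.105 and -0.130, lay above all PPARa-M siRNA mice, at -0.131 or lower and -0.1645 or lower.

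Among mice without a Ppara siRNA, Plin2 was 0.0723, 0.0608, -0.0228 and 0.0011 with SEAP-M control siRNA, a mean of 0.0279 ± 0.0460 (SD, n = 4). GL3 control siRNA mice had -0.0315, -0.0162, -0.116 and 0.0370, a mean of -0.0316 ± 0.0633 (SD, n = 4). All 4 vehicle mice were below the pool, at -0.0251, -0.0579, -0.0141 and -0.0312, with a mean of -0.0321 ± 0.0186 (SD, n = 4). The SEAP-M mean was thus the highest, the means of the PPARa, GL3 and vehicle groups differed by less than the spread within any of the 3, and the PPARa-M mean was the lowest. By the mean of the 3 probes, the GL3 and PPARa siRNA groups each held 1 mouse, replicate C and replicate D, close to the PPARa-M siRNA mice or among them.

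Against SEAP-M control siRNA, Plin2 with PPARa-M siRNA differed by -0.57 on the log2 scale (SE 0.12) and stood at 67.3%, and against vehicle it stood at 77.2%. With PPARa siRNA it stood at 101.0% of the GL3 level, a log2 difference of 0.01 (SE 0.12), and 8039 genes had a more negative difference. That value turned to -0.09 without PPARa siRNA replicate A and rose to 0.12 without replicate D, the mouse with high neutrophil markers. For Vnn1 the same difference was -0.53 and -0.38 without these mice. By the mean of probes, the difference between PPARa-M and PPARa siRNA mice was -0.39 on the log2 scale for each gene, with overlap for Plin2 (SE 0.12) and none for Vnn1 (SE 0.11). The overlap of Plin2 depended on the probe. On Plin2 probes 1 and 3 the PPARa-M siRNA mice all lay below the PPARa siRNA mice (log2 differences -0.54 and -0.57). On probe 2 the mice overlapped (-0.06).

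The Plin2 mean joined probes that did not behave alike. Probes 1 and 3 correlated with r = 0.968 over the 20 mice, whereas probe 2 correlated with r = 0.183 with probe 1 and r = 0.118 with probe 3. Probes 2 and 3 are annotated to the same transcript record, probe 1 to another. With PPARa-M siRNA, probe 1 was at 59.5% and probe 3 at 52.8% of the SEAP-M level, and neither overlapped with the SEAP-M mice. Probe 2 was at 96.9% of that level (log2 difference -0.05, SE 0.12), with overlap.

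On probe 2 the vehicle mice were all below the pool made from vehicle mice, at -0.109 ± 0.0181 (SD, n = 4), while on probes 1 and 3 their means were 0.0082 ± 0.0268 and 0.0045 ± 0.0344 (SD, n = 4 for each). PPARa-M siRNA replicate B, at 0.0327 on probe 2 against -0.125 to -0.108 in the other mice of its group, had -0.176 on probe 1 and -0.237 on probe 3. The signal that probe 2 reads was not tested. With the mean of probes 1 and 3 in place of all 3, a choice made after the values were seen, Plin2 was at 66.4% of the pool with PPARa-M siRNA and at 97.5% with PPARa siRNA. The difference between PPARa-M and SEAP-M siRNA was then -0.84 (SE 0.15), a level of 56.1% and close to that of Vnn1, and the one between PPARa and GL3 siRNA was 0.06 (SE 0.15). Between PPARa-M and PPARa siRNA it was -0.55 (SE 0.15). As log10 ratios of this mean, the PPARa-M siRNA mice were at -0.148 or lower. The lowest PPARa siRNA mouse was at -0.118 and the lowest GL3 mouse at -0.152.

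**Figure D2:**
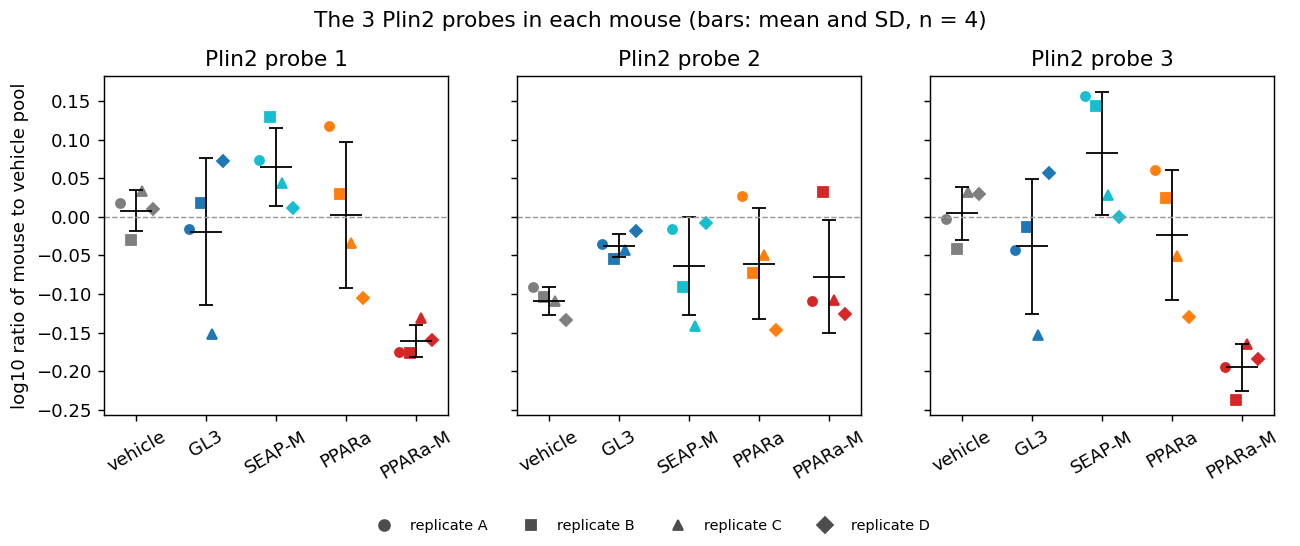
Log10 ratio to the vehicle pool (y axis) of each Plin2 probe in the 20 mice by group (x axis), with a marker shape for each replicate letter and bars for the mean and SD of 4 mice. Probes 1 and 3 fall together with PPARa-M siRNA, whereas probe 2 is below 0 in all vehicle and control siRNA mice and does not separate the PPARa-M siRNA mice from them.

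Across the 20 mice the level of Vnn1 rose and fell with that of Ppara. The Pearson correlation was 0.867 and the rank correlation 0.830. Only 7 of 15251 genes had a more positive Pearson correlation with Ppara, in an order that puts negative correlations last. Cpt1a, the carnitine palmitoyltransferase that admits long-chain fatty acids to mitochondria, was second with r = 0.897. For Plin2 the correlation was 0.723 (rank correlation 0.621), the 205th of these genes, and 0.749 for the mean of probes 1 and 3. These values describe the same shift between groups by which the genes were chosen, share the arrays and the pool, and carry no test.

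Among the 8 Ppara siRNA mice alone, the order of the mice by Vnn1 was exactly their order by Ppara (rank correlation 1.000, r = 0.905). Plin2 in the same mice had r = 0.746 and a rank correlation of 0.595 with Ppara. In the 12 other mice the correlation with Ppara was 0.351 for Vnn1 and 0.415 for Plin2 (rank correlation 0.343 and 0.119). When the mice with the highest and lowest Ppara, both given SEAP-M control siRNA, were left out it was 0.706 for Vnn1 and 0.313 for Plin2. Vnn1 and Plin2 correlated with each other with r = 0.745 over the 20 mice, 0.792 over the 8 Ppara siRNA mice and 0.486 over the 12 others. Without the pair of mice farthest from the median of Vnn1 in each set these were 0.664, 0.354 and 0.305.

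**Figure D3:**
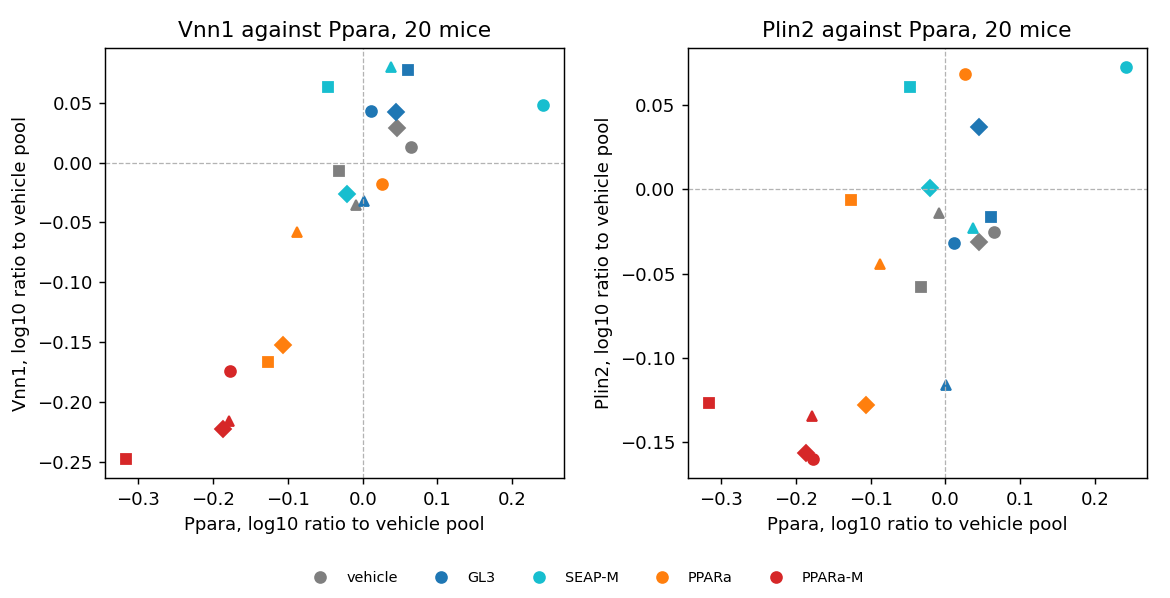
Vnn1 (left) and Plin2 (right) against Ppara, each as log10 ratio to the vehicle pool, in the 20 mice, coloured by group and with a marker shape for each replicate letter. For Vnn1 (r = 0.867) the 8 Ppara siRNA mice lie in the same order on both axes, and SEAP-M control siRNA replicate A stands far to the right; for Plin2 (r = 0.723) mice near the pool in Ppara range widely.

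Whether mice of the same group with more Ppara also had more Vnn1 or Plin2 was tested after the group means had been removed. In limma, with a mean for each group and the Ppara level as a covariate, Vnn1 changed by 0.30 (SE 0.14) on the log2 scale per log2 unit of Ppara, and Plin2 by 0.26 (SE 0.16). Neither slope passed after Benjamini-Hochberg adjustment over 15251 genes (limma, adjusted p = 0.347 for Vnn1 and 0.50 for Plin2, unadjusted p = 0.0465 and 0.131). No gene passed in either direction (0% higher and 0% lower), and at an unadjusted p under 0.05 7.62% of genes had a positive and 6.43% a negative slope, which is the background for the value of Vnn1. The slope of Vnn1 ranged from 0.22 without PPARa siRNA replicate A to 0.62 without SEAP-M control siRNA replicate A, and that of Plin2 from 0.13 to 0.36.

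The deviations of Vnn1 and Ppara from their group means had the same sign in 14 of 20 mice. Their Pearson correlation was 0.492 (two-sided permutation test within groups with 100000 resamples, p = 0.0585, adjusted p = 0.158 over 3 relations). By rank the correlation was 0.582 (permutation test, p = 0.0141, adjusted p = 0.0424), but with each mouse left out in turn this adjusted p ranged from 0.0303 to 0.149 and was under 0.05 in only 3 of 20 cases. This call was also lost with quantile normalization (permutation test, adjusted p = 0.272), with interquartile scaling (permutation test, adjusted p = 0.140), with Ppara probe 1 or probe 2 alone (permutation test, adjusted p = 0.155 and 0.0852) and with the replicate letter as a block (permutation test, adjusted p = 0.170). SEAP-M control siRNA replicate A had the largest deviation of Ppara, 0.627, with a Vnn1 deviation of only 0.023. Without that mouse the Pearson correlation was 0.680 (permutation test, adjusted p = 0.00807), and without PPARa siRNA replicate A it was 0.372. Over all single omissions its adjusted p ranged from 0.00807 to 0.501. Within the 8 Ppara siRNA mice the deviations correlated with r = 0.767 (exact permutation test, adjusted p = 0.00521), and within the 12 others with r = 0.310 (exact permutation test, adjusted p = 0.452). The difference between these correlations was not tested. Both p values were adjusted over 3 relations only, not over the subsets and settings examined. The Pearson test over all 20 mice did not pass.

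For Plin2 and Ppara the deviations correlated with r = 0.379 (permutation test, p = 0.141, adjusted p = 0.158), with the same sign in 13 of 20 mice, and the rank correlation was 0.263 (permutation test, adjusted p = 0.472). For Vnn1 and Plin2 the values were r = 0.469 (permutation test, p = 0.158, adjusted p = 0.158) and a rank correlation of 0.214 (permutation test, adjusted p = 0.472). Within groups, no relation of Plin2 with either gene passed. Single Plin2 probes gave slopes on Ppara from 0.07 (probe 2) to 0.43 (probe 3). The within-group SD was 0.157 on the log2 scale for Vnn1, 0.172 for Plin2 and 0.254 for Ppara, against a median of 0.148 over all genes.

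**Figure D4:**
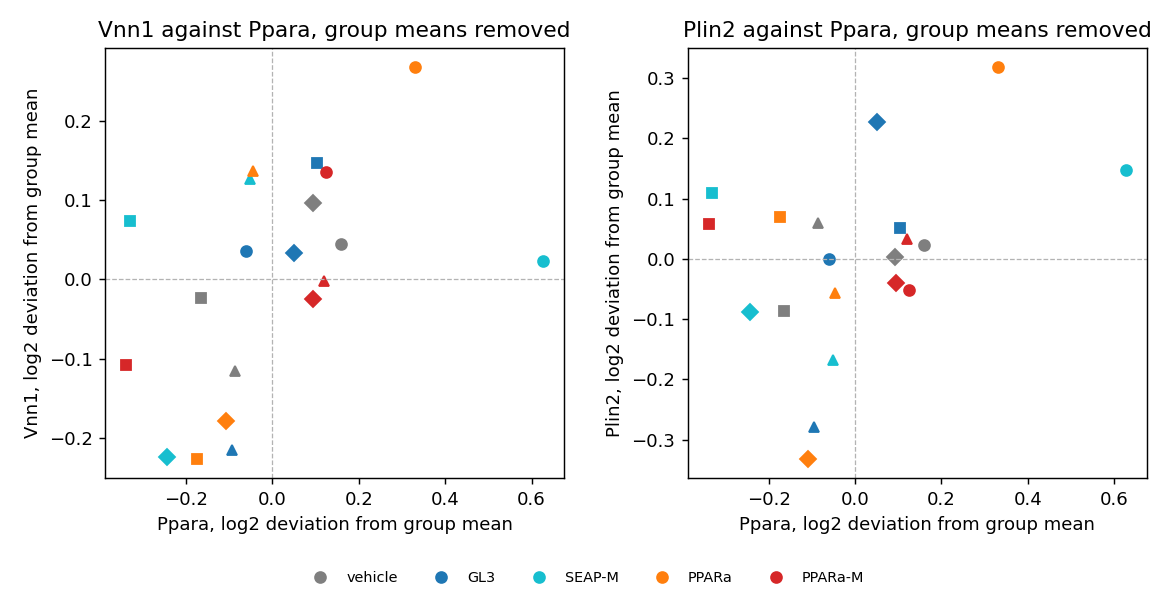
Log2 deviations from the group mean of Vnn1 (left) and Plin2 (right) against that of Ppara, in the 20 mice, coloured by group and with a marker shape for each replicate letter. Vnn1 deviates to the same side as Ppara in 14 mice (r = 0.492) and Plin2 in 13 (r = 0.379), and SEAP-M control siRNA replicate A stands at 0.627 on the x axis with Vnn1 near 0.

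The genes most like Vnn1 in level over the 20 mice were Ube2h (r = 0.890), a ubiquitin-conjugating enzyme, Eci1 (0.868), an isomerase of unsaturated fatty acid oxidation, Ppara (0.867), F11 (0.862), a coagulation factor made by liver, and Suclg1 (0.835), a subunit of succinyl-CoA ligase. For Plin2 they were Amacr (0.889), the racemase for branched-chain fatty acids and bile acid intermediates, Lmbr1l (0.858), Ube2h (0.822), Abcb1b (0.822), a drug efflux pump, and Fitm1 (0.813), which partitions triglyceride into lipid droplets. Ube2h stood in both lists, and Plin2 was 64th among 15251 genes by likeness to Vnn1. All of these genes had lower levels with PPARa-M siRNA than with SEAP-M control siRNA, by log2 differences from -0.40 to -0.89, and all but Ppara were between -0.18 and 0.04 for PPARa against GL3 siRNA.

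After group means were removed other genes stood nearest. For Vnn1 they were 3110099E03Rik (r = 0.801), Adhfe1 (0.796), a mitochondrial oxidoreductase of hydroxy acids, Frmpd1os (0.784), Tdrd9 (0.774) and Tpmt (0.766), which methylates thiopurines. Ppara was 463rd in this order. For Plin2 they were Pdp2 (0.810), a phosphatase that activates pyruvate dehydrogenase, Glyr1 (0.798), Mturn (0.797), Palmd (0.796) and Mctp1 (0.791), and Ppara was 1367th. The correlations are over 20 mice that share arrays and pool, and none was tested.

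Most other genes of the PPARα pathway had smaller differences than Vnn1. Vnn1 was chosen for its clear fall in these mice, so nothing is read from that. Of 52 listed PPARα target genes other than Vnn1 and Plin2, 42 were on the array. Between PPARa-M and SEAP-M control siRNA, 2 of them fell and 0 rose in limma at an adjusted p under 0.05, beside 1.51% of all genes lower and 1.04% higher. These were Eci1, with a log2 difference of -0.56 (SE 0.11, limma, adjusted p = 0.0106), and Cyp4a12a, a fatty acid hydroxylase with close paralogs that a probe may not tell apart, with -1.21 (SE 0.27, limma, adjusted p = 0.0248). Cyp4a12a was no longer called without SEAP-M control siRNA replicate A (limma, adjusted p = 0.0831) or PPARa-M siRNA replicate B (limma, adjusted p = 0.0526). After quantile normalization, or scaling of all arrays to one interquartile range, neither gene was called, and nor was any other of the 15252. With unadjusted p below 0.05, 14 of the 42 had lower and 2 had higher levels, beside 11.1% and 7.68% of all genes. The median of the list was -0.158 on the log2 scale against -0.0137 over all genes.

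The next smallest p values in the list missed the threshold. Cpt1a was at -0.35 (SE 0.09, limma, adjusted p = 0.0543), Acaa1b, the peroxisomal thiolase, at -0.41 (SE 0.11, adjusted p = 0.0513 in limma), Acot8, a peroxisomal thioesterase, at -0.28 (SE 0.08, adjusted p = 0.0614 in limma) and Decr2, a peroxisomal dienoyl-CoA reductase, at -0.43 (SE 0.13, adjusted p = 0.0696 in limma). Hsd17b4, a peroxisomal enzyme of fatty acid oxidation, was at -0.34 (SE 0.10, adjusted p = 0.0730 in limma). Acadl, the long-chain acyl-CoA dehydrogenase, is named whatever its p and was at -0.22 (SE 0.08, adjusted p = 0.152 in limma). Other genes of the list had smaller p values than Acadl. Fitted as single probes, 6 genes of the list had at least 1 probe called lower, with 1 of 3 probes for Acadvl and Hsd17b4, 2 of 5 for Cpt1a, 2 of 4 for Cpt2, 3 of 3 for Cyp4a12a and the only probe of Eci1. Of all genes, 1.81% had such a probe in this fit, and a gene with more probes had more chances. Probes of 1 gene thus gave unequal calls for other targets too.

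Against vehicle, a comparison added for the list after its values were seen, 8 of the 42 target genes fell with PPARa-M siRNA and 1 rose in limma, beside 3.91% of all genes lower and 3.36% higher. The 8 were Ehhadh, the peroxisomal bifunctional enzyme of fatty acid oxidation, at -0.40 (SE 0.09, adjusted p = 0.0149 in limma), together with Eci1 at -0.53, Acaa1b at -0.42, Acot8 at -0.34, Cpt1a at -0.35, Acadl at -0.32, Mlycd, the malonyl-CoA decarboxylase, at -0.31, and Cyp4a12a. Crat, carnitine acetyltransferase, rose by 0.26 on the log2 scale (SE 0.06, adjusted p = 0.0204 in limma). The same comparison left Vnn1 at -0.71 and Plin2 at -0.37, and the median of the list was -0.131 against -0.0185 over all genes. The count was 3 without vehicle replicate A, 2 without vehicle replicate D, 5 without PPARa-M siRNA replicate B, and 0 after quantile or interquartile scaling. Over all genes 597 lower and 513 higher calls against vehicle (53.8% lower) became 12 and 9 after quantile normalization and 20 and 9 (69.0% lower) after interquartile scaling.

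In the comparison of PPARa with GL3 control siRNA, in which Vnn1 was lower and Plin2 was not, 0 of the 42 genes passed in either direction in limma, as against 0% of all genes lower and 0.0525% higher. Before adjustment, p was below 0.05 for 4 genes with lower and 0 with higher levels, beside 2.86% and 2.09% of all genes. The median was -0.107 on the log2 scale against 0.0072 over all genes, between Vnn1 at -0.44 and Plin2 at 0.01. Abcd3, a transporter of fatty acids into peroxisomes named here after its value was seen, had -0.35 (unadjusted p = 0.00951 and adjusted p = 0.814 in limma), and Hsd17b4 had -0.26.

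Over both Ppara siRNAs against both control siRNAs, which pools the mice of these comparisons, Vnn1 was at 64.0%, a log2 difference of -0.64 (SE 0.08), and 35 genes had a more negative value. Plin2 was at 82.4%, a log2 difference of -0.28 (SE 0.08). None of the 42 other target genes passed in limma (0 lower and 0 higher, beside 0.0983% and 0.118% of all genes). Those shares were 15 genes lower and 18 higher, and became 1 and 6 after quantile normalization and 3 and 6 after interquartile scaling. Before adjustment, 17 had lower and 1 had higher levels at p below 0.05, beside 6.85% and 4.50%. The lowest unadjusted p values were those of Eci1 (-0.34, adjusted p = 0.0728 in limma), Hsd17b4 (-0.30, adjusted p = 0.0928 in limma) and Cpt1a (-0.24, adjusted p = 0.153 in limma). Fitted as single probes, 1 target gene, Hsd17b4, had a probe called lower, beside 0.131% of all genes. The gene that was higher, G0s2, an inhibitor of triglyceride lipolysis on lipid droplets, had a log2 difference of 0.65 (SE 0.25, adjusted p = 0.320 in limma).

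**Figure D5:**
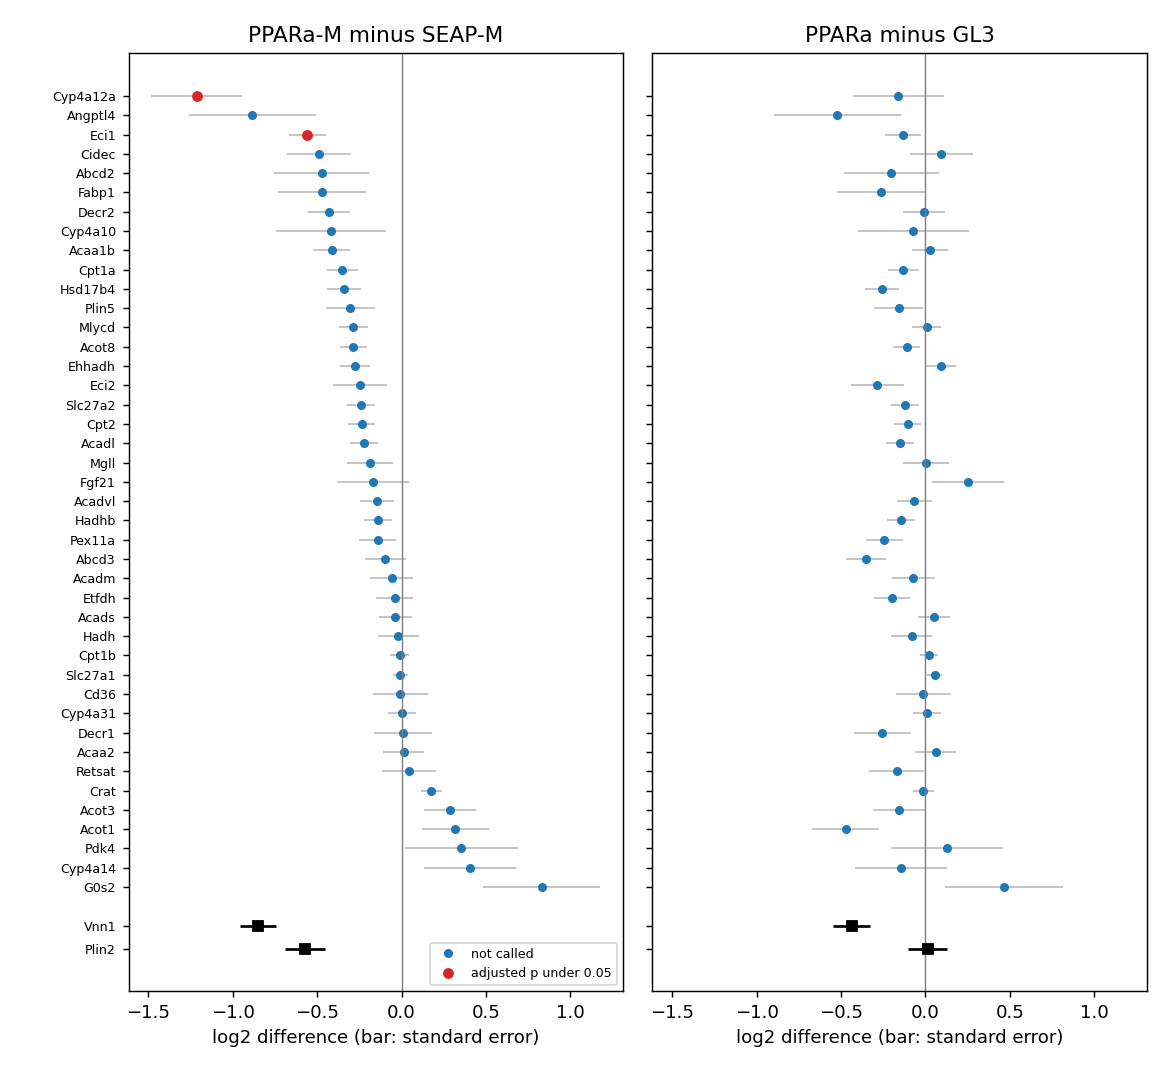
Log2 differences with standard errors (x axes) of the 42 other PPARα target genes on the array (rows, ordered by the left panel), with Vnn1 and Plin2 as black squares at the bottom, for PPARa-M against SEAP-M siRNA (left) and PPARa against GL3 siRNA (right). Eci1 and Cyp4a12a are called lower on the left, no gene on the right, and Vnn1 is low in both panels while Plin2 is low only on the left.

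Within groups, the slope on Ppara passed for 0 of the 42 target genes, and 6 had a positive and 1 a negative slope at an unadjusted p under 0.05, beside 7.62% and 6.43% of all genes. The positive slopes with the smallest p were those of Cpt1a (0.40, SE 0.10, limma, unadjusted p = 0.000942, adjusted p = 0.182), Eci1 (0.42, SE 0.12, adjusted p = 0.198 in limma) and Mlycd (0.32, SE 0.10, adjusted p = 0.218 in limma). The negative one was that of the fatty acid carrier Cd36 (-0.64, SE 0.19, adjusted p = 0.20 in limma).

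Of the other genes that act at the lipid droplet, 1 passed. Of 21 listed lipid droplet genes, 18 were on the array, and in PPARa-M against SEAP-M siRNA 1 fell, Fitm1 at -0.62 (SE 0.11, limma, adjusted p = 0.00763), and 0 rose, beside 1.51% and 1.04% of all genes. Before adjustment 5 had lower levels and 1, G0s2 at 0.83, a higher level at p below 0.05, beside 11.1% and 7.68%. Fitm1 was not called after quantile or interquartile scaling. Among the perilipins, Plin1 was at -0.32, Plin3 at -0.12, Plin4 at -0.19 and Plin5 at -0.30 on the log2 scale, and none passed (adjusted p from 0.206 to 0.608 in limma). Cidec, which fuses droplets, was at -0.49 (SE 0.19, adjusted p = 0.162 in limma), Cidea at -0.10 and Cideb at -0.09. The median of the list, which shares Cidec, Plin5, G0s2 and Mgll with the target genes, was -0.150 against -0.0137 over all genes. With PPARa siRNA against GL3 siRNA 0 of the 18 passed, and before adjustment 0 were lower and 2 higher, Plin3 at 0.35 and Plin4 at 0.19, beside 2.86% and 2.09% of all genes, where Plin2 was at 0.01.

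Around the pantetheinase reaction of vanin 1, 18 of 21 listed genes of coenzyme A and cysteamine metabolism were on the array. In PPARa-M against SEAP-M siRNA, Nudt7, a peroxisomal hydrolase that degrades coenzyme A, fell by 1.07 on the log2 scale (SE 0.22, limma, adjusted p = 0.0145), and the other 17 did not pass, beside 1.51% of all genes lower and 1.04% higher. Before adjustment 3 had lower and 0 had higher levels, beside 11.1% and 7.68%. The call of Nudt7 was lost without SEAP-M control siRNA replicate A (limma, adjusted p = 0.0565), without PPARa-M siRNA replicate C (limma, adjusted p = 0.0506) and after quantile or interquartile scaling. Pank1, a pantothenate kinase at the first step of coenzyme A synthesis, was at -0.23 (SE 0.08, adjusted p = 0.109 in limma). Fitted as single probes, 1 of the 2 Pank1 probes was called lower (-0.34, adjusted p = 0.0238 in limma). Of all genes, 1.81% had such a probe. Vnn3, the paralog of Vnn1, was at -0.05 (SE 0.11, adjusted p = 0.869 in limma), and its group means lay between -0.0410 and -0.0042 as log10 ratios. The median of the list was -0.051. With PPARa siRNA against GL3 siRNA 0 of the 18 passed, and Nudt7 was at 0.03 where Vnn1 was at -0.44.

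Markers of other cells were set side by side in the same groups. The 5 of 8 listed cholangiocyte markers on the array had a mean log2 ratio of 0.16 to 0.43 in PPARa-M siRNA mice and 0.01 to 0.38 in PPARa siRNA mice, against -0.25 to 0.16 in the 12 others. The 12 stellate cell markers had -0.02 to 0.29 with PPARa-M siRNA against 0.22 to 0.37 with SEAP-M control siRNA, and -0.38 to 0.07 with PPARa siRNA against -0.08 to 0.24 with GL3. In vehicle mice the stellate cell markers had -0.35 to 0.32, which overlapped with all of these groups. The 8 of 10 neutrophil markers had -0.18 to 2.61 with PPARa siRNA against -0.21 to 0.58 with GL3, with replicate D highest. None of these markers passed in limma for PPARa-M against SEAP-M siRNA or PPARa against GL3 siRNA, and before adjustment 3 and 2 cholangiocyte markers were higher, 2 and 1 stellate cell markers lower, and 0 and 3 neutrophil markers higher at p below 0.05. Of all genes, 11.1% were lower and 7.68% higher at that level in the first comparison, and 2.86% and 2.09% in the second. The part of these cells in the levels of Vnn1 and Plin2 was not tested.

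Hepatocytes are the main cells of liver and the ones that take up nucleic acid after such an injection. The 12 of 16 listed hepatocyte markers on the array lay between -0.04 and 0.17 with PPARa-M siRNA against -0.15 to -0.04 with SEAP-M control siRNA. None passed in that comparison, and before adjustment 5 were higher and 1, Cyp2e1 at -0.42, was lower, beside 7.68% and 11.1% of all genes. With PPARa-M siRNA against vehicle Apob was called higher and Ass1 lower by limma (adjusted p = 0.0204 and 0.0203), beside 3.36% and 3.91% of all genes. Ass1 was also called lower with PPARa siRNA against vehicle, at -0.68 on the log2 scale (limma, adjusted p = 0.0102). The share of all genes called in that comparison was not counted. Against the control siRNAs Ass1 was not lower, at 0.28 for PPARa-M against SEAP-M and 0.02 for PPARa against GL3. Its low level against vehicle was thus not particular to the Ppara siRNAs. With PPARa siRNA the hepatocyte markers lay between -0.22 and -0.11 against -0.14 to 0.02 with GL3. In these PPARa siRNA mice Vnn1 stood at -0.44 on the log2 scale against GL3 while Plin2 stood at 0.01. The 9 of 12 macrophage markers and the 10 of 12 endothelial markers overlapped between PPARa-M and SEAP-M siRNA mice, at -0.13 to 0.18 against -0.22 to 0.26 and at 0.10 to 0.25 against 0.03 to 0.16. Of these, Flt1, an endothelial receptor for VEGF, was higher with PPARa-M siRNA by 0.46 on the log2 scale (limma, adjusted p = 0.037), beside 1.04% of all genes. After quantile or interquartile scaling no gene was called in this comparison. A part of macrophages or endothelial cells in the levels of Vnn1 and Plin2 was not tested.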

How the data were processed

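Livers of 20 mice were profiled on 2-colour oligonucleotide arrays. The authors deposited 1 table of log10 ratios for 23493 probes. Background correction, dye handling and normalization of the arrays are not given in the sources used here, and the table holds no intensities, so the ratios were used as deposited, converted to log2 where log2 is stated. Of the probes, 18790 had a single symbol, 65 several and 4638 none; genes are means of their probes. No member or Ppara value stood at the table's limit.

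The fit of gene means used R 4.3.3 and limma 3.58.1, a mean per group over all 20 arrays, and eBayes; p values were adjusted by Benjamini-Hochberg over all genes. Slopes added the Ppara level as a covariate. Deviations from group means were correlated with permutation of mice within groups. Slides and scan dates were not analysed here. The fits were tested on simulated data. Python 3.11.15 with pandas 2.3.3 and matplotlib 3.10.9 served for tables and figures.

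The members and gene lists were chosen with earlier results of these data known. Genes named are the members, Ppara, Cpt1a, Acadl, Vnn3, perilipin and Cide genes, the 5 most alike by level and by deviation, and, of those with the smallest p, up to 6 target genes for PPARa-M against SEAP-M, for both siRNAs and for the slope, and up to 4 of each other list, though not all of these are printed; others (Abcd3, Ehhadh, Crat, Acadvl, Cpt2 and the single markers) were named after their values were seen. Alternatives were other scalings, single probes, single Ppara probes, subsets of mice, array weights, robust moderation, filters, a stricter threshold, the replicate letter as a block, each mouse left out, and, chosen after seeing the data, Plin2 without probe 2. Target genes against vehicle were also added then.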

Additional observations from a re-analysis of the deposited data

Results flagged for a closer look

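Among 135 sets of 4 mice (a gene or probe in a group), 10 held a mouse set apart from the other 3 by most of the range of the group (Dixon's test at the 95% level), where chance gives about 1 in 20. Plin2 probe 2 was 0.0327 in PPARa-M siRNA replicate B, against -0.125 to -0.108 in the other mice of the group. The same mouse had the lowest Ppara, -0.317 over the 4 probes and -0.322 on probe 2, against -0.186 to -0.177 over the 4 probes in the others. Its Vnn1 was the lowest of its group too, at -0.247, and so were its Plin2 probes 1 and 3, at -0.176 and -0.237.

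The other such mice were in genes named beside the members. With PPARa-M siRNA, Plin1 was -0.261 in replicate C (others -0.0514 to -0.0273), and in replicate A Plin4 was -0.158 (others -0.0650 to -0.0557) and Cidec -0.0374 (others -0.147 to -0.132). With GL3 control siRNA, Plin1 was 0.0198 in replicate A and Cidea 0.516 in replicate B (others -0.0687 to -0.0231). Plin4 was -0.0440 in SEAP-M control siRNA replicate B, and Acadl -0.0135 in PPARa siRNA replicate C.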

How the results depend on the processing

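Scaling changed calls with PPARa-M siRNA; the cause was not tested. Against SEAP-M control siRNA, Vnn1 was at -0.66 with quantile normalization and at -0.68 with one interquartile range. With either, 0 target genes and 0 lipid droplet or coenzyme A genes were called, against 2 and 2 as deposited. Over all genes 0 were called with either scaling, against 230 lower and 158 higher as deposited. Calls over both siRNAs were then 1 lower and 6 higher, or 3 and 6, against 15 and 18. Other settings moved the 2 target genes called lower to 6 with single probes, 5 (and 1 higher) with array weights, 1 in a fit of both groups alone and 0 at an adjusted p under 0.01, and the 2 lipid droplet or coenzyme A genes to 0 in that fit and 1 at that threshold. Over both siRNAs 1 target gene was called with single probes and 2 with array weights. Against vehicle, the 8 lower and 1 higher target genes became 0 and 0 with either scaling or in a fit of both groups alone, and 1 and 0 at an adjusted p under 0.01; with each mouse left out they ranged from 2 to 10 and from 0 to 2. With each mouse left out, the target genes called ranged from 1 to 3 lower and 0 to 1 higher, and from 0 to 1 over both siRNAs, and lipid droplet or coenzyme A genes from 1 to 3. Vnn1 with Ppara had r from 0.372 to 0.680 with each mouse left out, 0.706 without the 2 mice farthest in Ppara (adjusted p = 0.0200) and 0.767 in the 8 Ppara siRNA mice. Without a group term the slopes were 0.77 and 0.44. Plin2 without probe 2 was at -0.84. With the replicate letter as a block, slopes were 0.27 and 0.32 and r with Ppara was 0.361 and 0.383; 3 target genes were called, and only the rank correlation of Vnn1 with Ppara lost its call (0.445, adjusted p = 0.170). Same-lettered mice had a median r of -0.017 (0.012 with other letters), with 13 of 40 pairs over 0.1 (23 of 120 with other letters). Of the 20 mice, 9 were nearest to their own letter. These values do not settle whether same-lettered mice belong together. The main fits did not take the letters as pairs. Array weights and robust moderation could not be applied to correlations.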
